A study of Homo sapiens with 16 samples.

Results

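Genes that build cell-cell junctions and set the polarity of epithelial cells were followed through 16 RNA-seq libraries of 2 human colon cancer cell lines. The 33 genes were taken from a fixed list of gene identifiers, without regard to their levels, out of 63677 identifiers in the deposited count table. They comprised 5 genes of adherens junctions and adhesion, 7 desmosomal genes, 7 claudins, 7 other tight junction genes, 3 regulators of epithelial identity and 4 polarity genes. Of the 33, 31 passed the filter on low counts. Also present were 5 identifiers that carry the symbols JUP, CLDN3, CLDN4, OCLN or MARVELD2; they had 0 reads in all libraries and were left aside.

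SW620 cells were sequenced as ESR2-transduced (ERB) cells given 10 nM estradiol for 24 h, as ERB cells given DMSO for 24 h, as untreated ERB cells, as cells with empty vector and as parental cells without transduction. SW480 cells were sequenced as untreated ERB cells, as cells with empty vector and as parental cells. Each of the 8 groups had 2 libraries, numbered I and II. ESR2 encodes estrogen receptor beta, a nuclear receptor that binds estradiol, and DMSO is the solvent in which such ligands are usually given. SW480 and SW620 are established lines from a primary colon adenocarcinoma and from a lymph node metastasis of the same patient. All cells were grown in DMEM with serum, and the labels do not say whether a transduced line was a clone or a pool, or whether the 2 libraries of a group came from separate cultures. P-values therefore measure the spread between these libraries, which may be technical.

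Epithelial cells are joined from apex to base by tight junctions, adherens junctions and desmosomes. In adherens junctions, cadherins bind between cells and are tied through catenins to actin. Desmosomes tie their cadherins through plakoglobin, plakophilins and plakins to keratin filaments, and in tight junctions claudins and occludin seal the space between cells or form selective pores. The Crumbs and PAR complexes mark the apical side and LGL proteins the basolateral side. In the colon this system forms the barrier of the mucosa, and repressors of the SNAI and ZEB families can lower several of its genes.

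Library totals ran from 12743940 to 18948283 counts. ESR2 had 100 to 187 reads in the 8 ERB libraries and 0 to 4 reads in the 8 others. Of 8 markers of colon epithelium, 7 had reads and CDX1 had none, with summed levels of 2780 to 30500 CPM (counts relative to the library total, scaled with TMM factors). Summed levels were 5.62 to 27.1 CPM for 10 fibroblast markers, 0.611 to 4.62 CPM for 7 leukocyte markers and 0.508 to 3.99 CPM for 5 endothelial markers. COL3A1 and PECAM1 had 0 reads everywhere.

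The libraries labelled SW480 with a vector stood apart from parental SW480. Genes other than the 33 that were at 5 CPM or more in parental SW480 and at least 8-fold above parental SW620 numbered 300. Their median level in the libraries labelled SW480 was 17.1% and 21% of the parental SW480 level with ERB, and 2.2% and 2.1% with empty vector. It was 1.41 to 2.02% in the 10 SW620 libraries. For 35 genes chosen the opposite way, the median as a share of the parental SW620 level was 54.4% and 48.3% in ERB libraries labelled SW480 and 28.8% and 66.2% in those with empty vector, against 4.58% and 5.59% in parental SW480. Any difference between these libraries and parental SW480 therefore cannot be told apart from a difference in the line they came from. The ERB and empty-vector libraries labelled SW480 also differed from each other in these shares, so the same holds for a difference between them. These libraries with a vector are called below the libraries labelled SW480.

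The 2 libraries of a group also differed in how well they agreed. Of the 30 genes whose mean reached 1 CPM, 18 differed over 2-fold between the 2 empty-vector libraries labelled SW480, 12 between the 2 ERB libraries labelled SW480 and 10 between the 2 parental SW480 libraries. In the SW620 groups this number was 0 with estradiol, 1 with DMSO, 0 in untreated ERB cells, 1 with empty vector and 5 in parental cells.

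**Figure D1:**
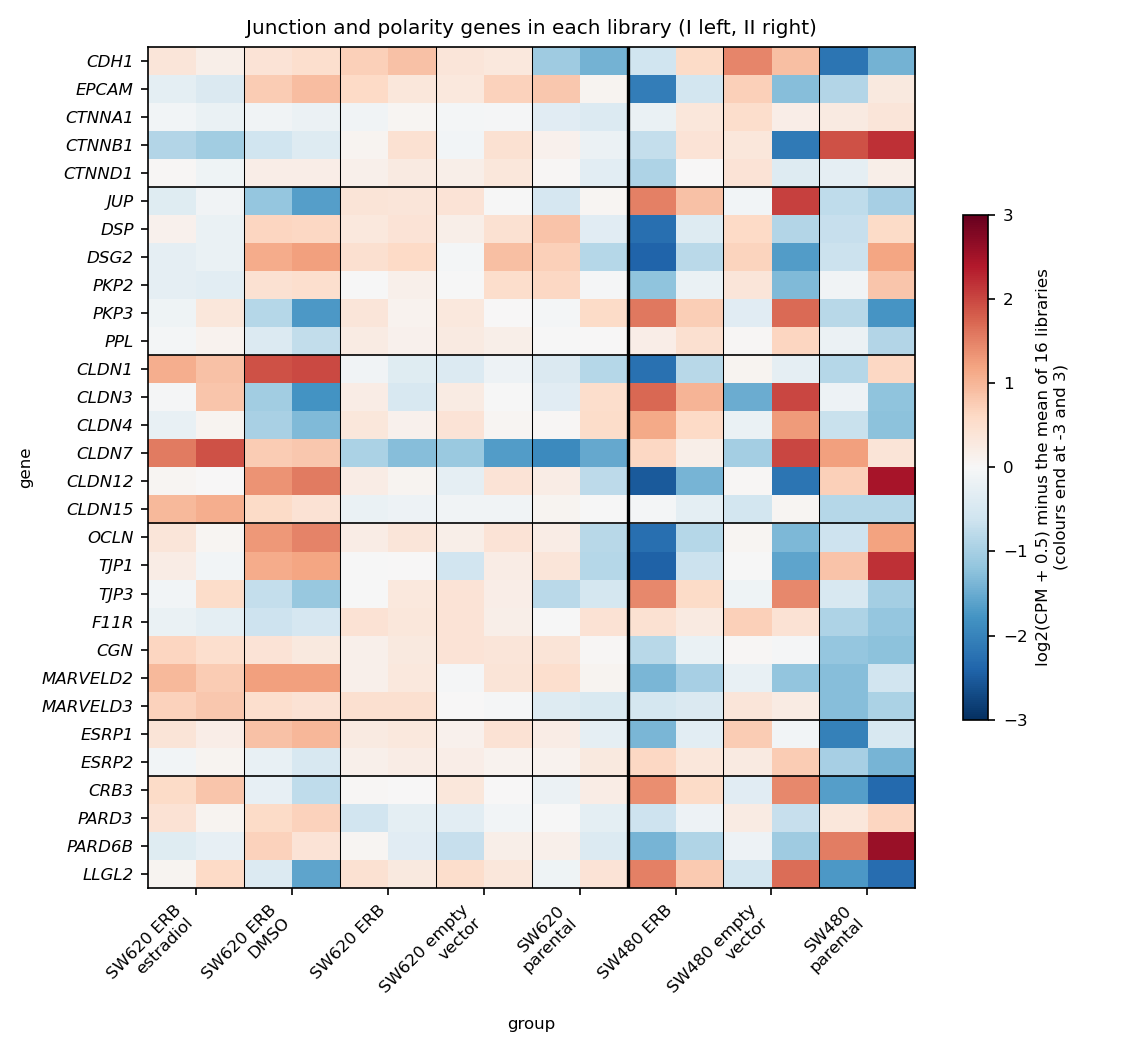
Level of each of 30 genes (rows, grouped by role) in each of the 16 libraries (columns, library I left of library II), as log2(CPM + 0.5) minus the gene's mean over the 16 libraries. CTNNB1 and PARD6B are highest in the 2 parental SW480 libraries, CLDN1 is highest in DMSO-treated SW620 ERB cells, and the 2 empty-vector libraries labelled SW480 differ from each other in many rows.

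On the length-scaled FPKM scale, mean levels over the 16 libraries spanned a wide range. The most abundant were CTNNA1 (alpha-catenin) at 314 FPKM, CTNNB1 (beta-catenin) at 157 FPKM, EPCAM at 120 FPKM, LLGL2 at 104 FPKM and PKP3 at 80.8 FPKM. F11R and CLDN4 followed at 58.7 and 56.2 FPKM. At the low end stood PARD6B at 0.643 FPKM and the desmosomal cadherin DSC2 at 0.0661 FPKM. The epithelial transcription factor GRHL2 had 13 reads in all 16 libraries together and the pore-forming claudin CLDN2 had 1 read, and neither passed the filter.

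Across 10 comparisons between groups, 22 of the 33 genes were called in at least 1 by edgeR's quasi-likelihood test over all 17464 tested genes at a Benjamini-Hochberg adjusted p under 0.05, and 11 in none. F11R was called in 4 comparisons, more than any other. All calls but those of CLDN1 and F11R with DMSO came from comparisons with parental SW480. In parental SW620 against parental SW480, 7 of 31 tested genes were called higher and 3 lower, a share of 32.3% where 18% of all genes were called, 6.84% higher and 11.2% lower. In bulk RNA, fewer cells of a kind and less RNA per cell cannot be told apart. In empty-vector libraries labelled SW480 against parental SW480, 13 were called higher and 4 lower, 54.8% against 30.9% of all genes, of which 14.9% were higher and 16% lower. In ERB libraries labelled SW480 against parental SW480, 10 were called higher and 6 lower, 51.6% against 44.4% of all genes, of which 19.5% were higher and 24.9% lower. These comparisons share the 2 parental SW480 libraries. When the libraries of 1 line were fitted alone, the 2 counts in libraries labelled SW480 were 1 and 0. The share of all genes called in that fit is not given. In the same 2 comparisons, 7 of 8 mitochondrial mRNAs were called higher with empty vector and 3 of 8 with ERB (median log2 fold changes of 1.35 and 1.01). Of 6 tested markers of colon epithelium, 5 and 6 were called higher (median log2 fold changes of 2.43 and 2.62). The part of either in the result was not tested. Apart from CDH1 and EPCAM, genes given below with values in every library were chosen by their number of calls. Where their libraries lie apart from parental SW480, this follows in part from that choice. The share of all genes whose groups lie apart in such ways was not counted.

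In DMSO-treated against untreated SW620 ERB cells 1 gene was called higher and 1 lower, 6.45% against 6.15% of all genes, of which 2.39% were higher and 3.76% lower. None was called for ERB against empty vector in SW620, where 0.00573% of all genes were called, or in the libraries labelled SW480, where 1.1% were called. None was called for estradiol against DMSO or for empty vector against parental in SW620, where 0% of all genes were called in each. The counts at an unadjusted p under 0.05 were 0 and 4 for ERB, 6 for estradiol and 1 for empty vector in SW620. Here and below, such counts and counts called by DESeq2 are given without the share of all genes. They therefore describe the settings and not these genes. With DESeq2, 1 gene (MARVELD3) was called for ERB in the libraries labelled SW480 and none in the other 3 comparisons. None was called between the lines among empty-vector cells or among ERB cells, where 0.326% and 2% of all genes were called (0.303% and 0.292% lower, 0.0229% and 1.71% higher); 2 and 12 genes had an unadjusted p under 0.05, and DESeq2 called 1 and 2. The median log2 fold change of the 31 genes was 0.5 in the parental lines, where that of all genes was -0.05.

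**Figure D2:**
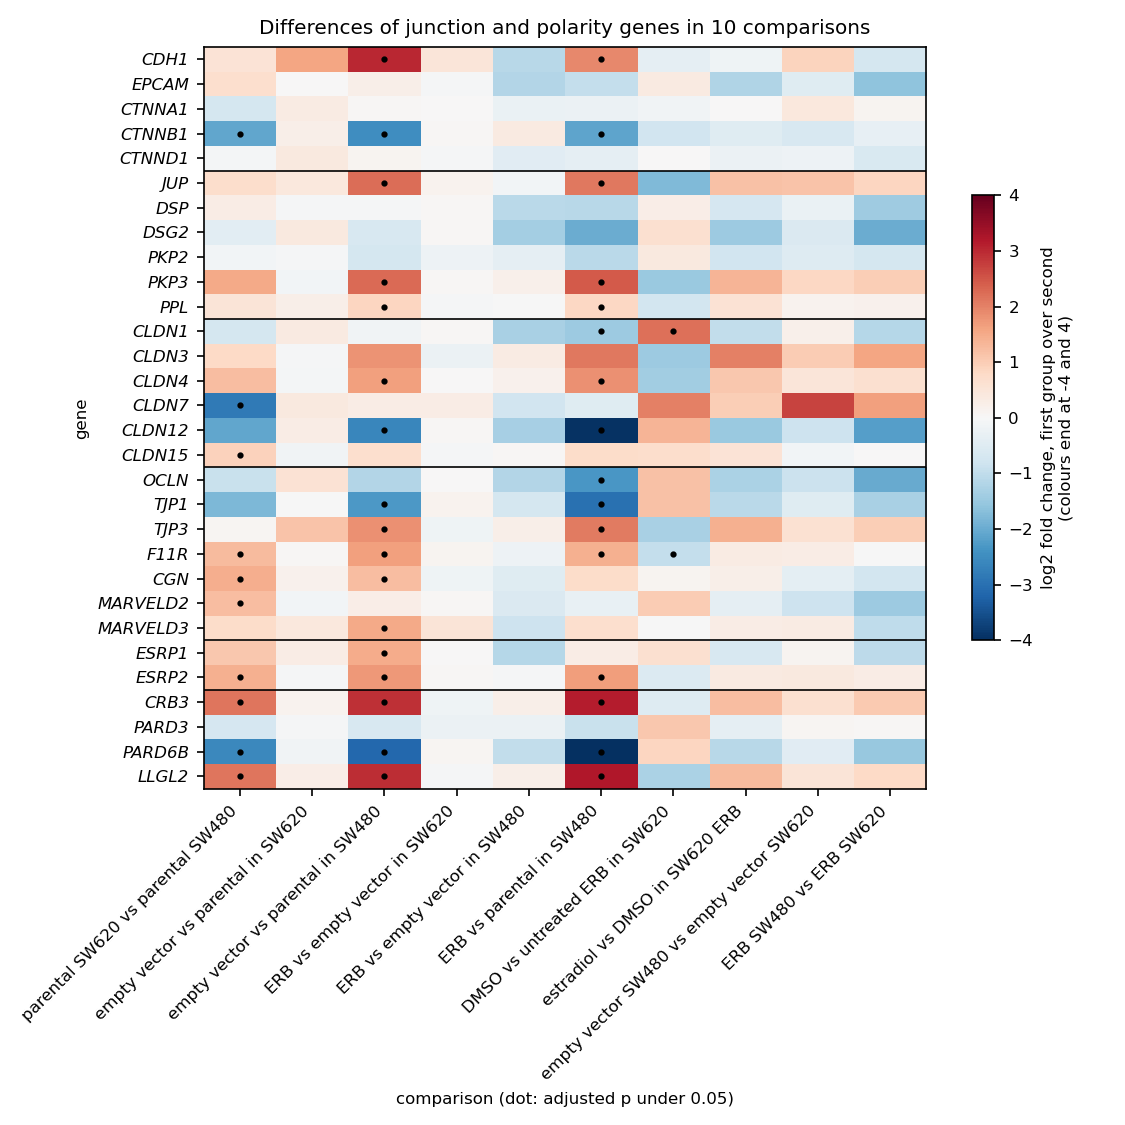
Log2 fold change of 30 genes (rows, grouped by role) in 10 comparisons (columns, first-named group over second-named), with a dot where the adjusted p was under 0.05. Dots stand in the 3 columns with parental SW480 as reference and, for CLDN1 and F11R only, in the DMSO column.

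Among adherens junction genes, CDH1, which encodes E-cadherin, the cadherin of epithelial adherens junctions, was low in the parental cells of both lines. CDH1 was at 50.9 and 45 CPM with estradiol, 53 and 55.9 CPM with DMSO, 65.7 and 73.3 CPM in untreated ERB cells, 51 and 49.2 CPM with empty vector and 18.7 and 14.6 CPM in parental SW620. In the libraries labelled SW480 it was at 26.1 and 59.4 CPM with ERB and 110 and 74.1 CPM with empty vector, against 8.27 and 14.4 CPM in parental SW480. All 8 transduced SW620 libraries and all 4 transduced libraries labelled SW480 lay above both parental libraries of their line. CDH1 was 8.12-fold higher with empty vector than in parental SW480 (log2 fold change 3.02, SE 0.42, adjusted p = 0.00043) and 3.78-fold higher with ERB (1.92, SE 0.4, adjusted p = 0.0062).

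In SW620 the same step from parental to empty vector gave CDH1 a log2 fold change of 1.59 (SE 0.4), with an unadjusted p of 0.0017 and an adjusted p of 1, so it was not called by edgeR over 16 libraries. In a fit of the 10 SW620 libraries alone it was called (1.59, adjusted p = 0.014). Offsets that remove each library's trend with transcript GC content and length were also used. With them it was called over 16 libraries (1.54, adjusted p = 0.043) and in SW620 libraries alone (1.53, adjusted p = 8.3e-05). The difference of the vector effect between the lines, labelled SW480 minus SW620, was 1.43 (SE 0.55, adjusted p = 0.12). With the offsets over 16 libraries this difference was called (1.98, adjusted p = 0.0012). ERB against empty vector gave CDH1 a log2 fold change of 0.47 (SE 0.39) in SW620 and -1.1 (SE 0.39, adjusted p = 0.34) in the libraries labelled SW480. With the offsets the second value was -1.23 (adjusted p = 0.013), where an ERB effect cannot be told apart from a difference in line. The same holds for the difference of the ERB effect between the lines, which was -1.72 with the offsets (adjusted p = 0.042).

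CTNNB1, which joins cadherins to alpha-catenin and also acts as the coactivator of Wnt signalling, was high in parental SW480. CTNNB1 was at 217 and 192 CPM with estradiol, 263 and 306 CPM with DMSO, 419 and 548 CPM in untreated ERB cells, 377 and 547 CPM with empty vector and 436 and 352 CPM in parental SW620. Libraries labelled SW480 had 240 and 527 CPM with ERB and 503 and 90.9 CPM with empty vector, against 1490 and 1820 CPM in parental SW480. The 14 other libraries all lay below the 2 of parental SW480. In parental SW620 against parental SW480 the log2 fold change was -2.07 (SE 0.61, adjusted p = 0.035), a call lost in 13 of 27 alternative settings. The log2 fold change was -2.48 (SE 0.62, adjusted p = 0.013) with empty vector and -2.11 (SE 0.61, adjusted p = 0.02) with ERB against parental SW480. With the offsets the values were -1.4 in parental SW620, -1.75 with empty vector and -0.89 with ERB.

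EPCAM, the epithelial cell adhesion molecule, was not called by edgeR over the 16 libraries in any of the 10 comparisons. EPCAM was at 86.2 and 77.5 CPM with estradiol, 178 and 201 CPM with DMSO, 161 and 133 CPM in untreated ERB cells, 131 and 171 CPM with empty vector and 184 and 112 CPM in parental SW620. In libraries labelled SW480 it was at 24.7 and 72.4 CPM with ERB and 174 and 43.4 CPM with empty vector, and at 57.4 and 129 CPM in parental SW480. The 2 estradiol libraries lay below the 8 others of SW620, while the groups labelled SW480 overlapped. Estradiol against DMSO gave a log2 fold change of -1.21 (SE 0.62, adjusted p = 0.24), and -1.18 with an adjusted p of 0.014 when only SW620 libraries were fitted with the offsets. CTNNA1 and CTNND1, the p120 catenin that stabilises cadherins at the membrane, were not called in this fit either and ranged over 415 to 798 CPM and 126 to 319 CPM. With the offsets both were called in parental SW620 against parental SW480 (-0.44 and 0.43, adjusted p = 0.039 and 0.034) and with empty vector against parental SW480 (0.54 and 0.84, adjusted p = 0.013 and 0.00053).

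**Figure D3:**
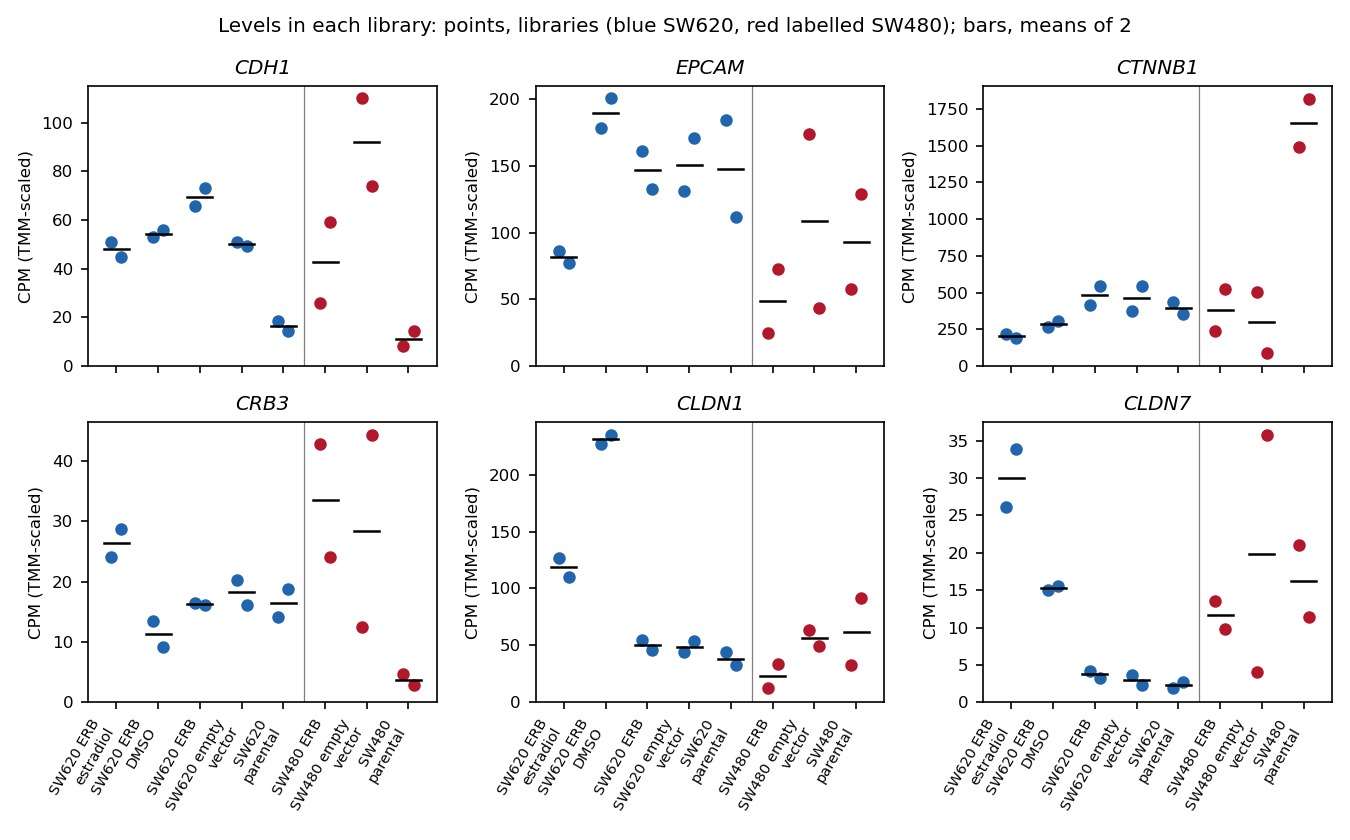
Level of CDH1, EPCAM, CTNNB1, CRB3, CLDN1 and CLDN7 in TMM-scaled CPM in each library (points; blue, SW620; red, labelled SW480), with the mean of each group of 2 (bars). CTNNB1 in parental SW480 sits at 1490 and 1820 CPM, above all other libraries, and CLDN1 and CLDN7 sit higher in DMSO-treated and estradiol-treated than in untreated SW620 cells.

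Among desmosomal genes, JUP, PKP3 and PPL were higher in the libraries labelled SW480 with a vector than in parental SW480. JUP encodes plakoglobin, which binds both desmosomal and classical cadherins. It was at 124 and 148 CPM with estradiol, 70.8 and 50.7 CPM with DMSO, 208 and 204 CPM in untreated ERB cells, 213 and 159 CPM with empty vector and 112 and 166 CPM in parental SW620. JUP was at 457 and 296 CPM with ERB and 152 and 660 CPM with empty vector in libraries labelled SW480, against 94 and 79.2 CPM in parental SW480. Neither the ERB nor the empty-vector pair overlapped the parental SW480 pair. The empty-vector pair was spread over a wide range that enclosed the ERB pair. Over parental SW480, the log2 fold change was 2.23 with empty vector (SE 0.54, adjusted p = 0.01) and 2.12 with ERB (SE 0.53, adjusted p = 0.012), and with the offsets it was 1.48 and 1.01.

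PKP3, a plakophilin that links desmosomal cadherins to desmoplakin, gave log2 fold changes of 2.25 and 2.46 in the same comparisons (adjusted p = 0.017 with empty vector and 0.011 with ERB), which were 1.39 and 1.03 with the offsets. PPL, the plakin periplakin, gave 0.87 and 0.84 (adjusted p = 0.044 and 0.039); its call was lost in 21 of 28 alternative settings for each. Desmoplakin (DSP), DSG2, PKP2 and DSC2 were not called by edgeR over the 16 libraries in any of the 10 comparisons. Other settings called DSG2 lower with ERB than in parental SW480 (DESeq2, -2.09, adjusted p = 0.022) and DSC2 higher with empty vector (edgeR with offsets, 2.26, adjusted p = 0.028). DSP ranged from 46.6 to 408 CPM and DSG2 from 4.45 to 61.4 CPM, and both were lowest in ERB library I labelled SW480. PKP2 ranged from 17.7 to 81.7 CPM, and DSC2 did not exceed 1 CPM.

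Claudins moved in different directions. CLDN4, a claudin that tightens the barrier to ions, was at 101 and 125 CPM with estradiol, 59.7 and 47 CPM with DMSO, 149 and 129 CPM in untreated ERB cells, 156 and 123 CPM with empty vector and 120 and 174 CPM in parental SW620. CLDN4 was at 259 and 179 CPM with ERB and 103 and 287 CPM with empty vector in libraries labelled SW480, against 73.9 and 50.3 CPM in parental SW480. The parental SW480 pair lay below the 4 transduced libraries. Relative to parental SW480, the log2 fold change was 1.65 with empty vector (SE 0.44, adjusted p = 0.016) and 1.82 with ERB (SE 0.44, adjusted p = 0.01); with the offsets the value for ERB was 1.15.

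CLDN12 showed the opposite order. CLDN12 was at 9.28 and 8.96 CPM with estradiol, 23.2 and 27.3 CPM with DMSO, 10.4 and 9.4 CPM in untreated ERB cells, 7.25 and 12 CPM with empty vector and 10.5 and 4.98 CPM in parental SW620. It was at 1.14 and 3.06 CPM with ERB and 9.09 and 1.56 CPM with empty vector in libraries labelled SW480, against 15 and 51.3 CPM in parental SW480. Neither the ERB nor the empty-vector pair overlapped the parental SW480 pair, but they overlapped each other. The spread was wide in the empty-vector and parental pairs. Log2 fold changes were -2.62 with empty vector (SE 0.78, adjusted p = 0.026) and -3.95 with ERB (SE 0.84, adjusted p = 0.0063), and with the offsets they were -1.13 and -1.66.

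CLDN1, a claudin needed for the epithelial barrier, was called in treated SW620 cells. CLDN1 was at 127 and 110 CPM with estradiol, 227 and 235 CPM with DMSO, 55 and 46.1 CPM in untreated ERB cells, 44.4 and 53.5 CPM with empty vector and 43.9 and 32.6 CPM in parental SW620. The 4 libraries given DMSO or estradiol lay above the 6 untreated ones, and the DMSO pair lay highest. DMSO against untreated ERB cells gave a log2 fold change of 2.19 (SE 0.5, adjusted p = 0.028), a call lost when any 1 library of the untreated ERB, DMSO or estradiol groups was left out, and estradiol against DMSO gave -0.97 (SE 0.48, adjusted p = 0.24). With the offsets, the value for DMSO was 1.44 (adjusted p = 0.0052) and that for estradiol was -0.07 (adjusted p = 0.93).

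CLDN1 was at 12.2 and 33.2 CPM with ERB and 63.1 and 49.5 CPM with empty vector in libraries labelled SW480, and at 32.5 and 91.5 CPM in parental SW480. The ERB and parental pairs overlapped. ERB against parental SW480 was called (log2 fold change -1.45, SE 0.49, adjusted p = 0.034), but the sign turned to 0.19 with the offsets (adjusted p = 0.63).

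CLDN7 and CLDN15 are described because of values seen in treated cells. CLDN7, a claudin of the lateral membrane of intestinal cells, was at 26.1 and 33.9 CPM with estradiol and 15 and 15.5 CPM with DMSO, against 1.92 to 4.22 CPM in the 6 untreated SW620 libraries. CLDN15, which forms cation pores in the gut, was at 29.4 and 31.9 CPM with estradiol and 22 and 20 CPM with DMSO, against 12.7 to 15.4 CPM in those 6. In both genes the treated and untreated libraries did not overlap, but the genes were chosen on these values. The share of all genes without such an overlap was not counted. For DMSO against untreated ERB cells CLDN7 gave a log2 fold change of 2.03 (SE 0.73, adjusted p = 0.11) and CLDN15 gave 0.71 (SE 0.29, adjusted p = 0.14). With the offsets these were 2.73 (adjusted p = 0.00077) and 1.4 (adjusted p = 0.0067). In libraries labelled SW480, CLDN7 was at 9.85 to 13.6 CPM with ERB and 3.98 to 35.8 CPM with empty vector. Empty-vector library II held its highest level in the series. The empty-vector mean was 19.9 CPM but 1.67 FPKM, so the deposited counts and FPKM differ there. CLDN7 was lower in parental SW620 than in parental SW480, where it was at 21 and 11.4 CPM. This difference was -2.82 on the log2 scale (SE 0.76, adjusted p = 0.023), while CLDN15 was higher in parental SW620 by 0.93 (SE 0.3, adjusted p = 0.047). The call of CLDN15 was lost in 22 of 27 alternative settings, among them the offsets (0.63, adjusted p = 0.13). CLDN3 ranged from 1.62 to 28.7 CPM and was not called by edgeR over the 16 libraries in any comparison, while DESeq2 called it higher with ERB than in parental SW480 (2.11, adjusted p = 0.035).

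Of the other tight junction genes, F11R, the junctional adhesion molecule A, was lowest in parental SW480. F11R was at 59.9 and 56.2 CPM with estradiol, 44.4 and 48.4 CPM with DMSO, 92.6 and 87.3 CPM in untreated ERB cells, 91.3 and 76.9 CPM with empty vector and 68.1 and 93.1 CPM in parental SW620. It was at 94.9 and 82.8 CPM with ERB and 112 and 93.4 CPM with empty vector in libraries labelled SW480, against 35.6 and 30.6 CPM in parental SW480. Groups did not overlap in any of its called comparisons. F11R gave a log2 fold change of 1.28 in parental SW620 against parental SW480 (SE 0.25, adjusted p = 0.0043), 1.63 with empty vector against parental SW480 (SE 0.26, adjusted p = 0.00094) and 1.42 with ERB against parental SW480 (SE 0.26, adjusted p = 0.0035). With DMSO against untreated SW620 ERB cells it was -0.96 (SE 0.25, adjusted p = 0.045), a call lost in 18 of 29 alternative settings.

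CGN, the tight junction linker cingulin, was at 50 and 45.2 CPM with estradiol, 42.3 and 39.2 CPM with DMSO, 35.7 and 39.2 CPM in untreated ERB cells, 42.7 and 41.1 CPM with empty vector and 41.7 and 32.5 CPM in parental SW620. It was at 17.6 and 27.6 CPM with ERB and 32.5 and 31.2 CPM with empty vector in libraries labelled SW480, against 14 and 13.3 CPM in parental SW480. Parental SW480 lay below all 14 other libraries. CGN was higher in parental SW620 than in parental SW480 (log2 fold change 1.44, SE 0.28, adjusted p = 0.0041) and with empty vector than in parental SW480 (1.22, SE 0.28, adjusted p = 0.0086).

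TJP1, the scaffold protein ZO-1, ran the other way. TJP1 was at 31.4 and 25.3 CPM with estradiol, 58.1 and 61.2 CPM with DMSO, 26.4 and 27.1 CPM in untreated ERB cells, 17.7 and 31 CPM with empty vector and 34.7 and 14.4 CPM in parental SW620. It was at 4.56 and 17 CPM with ERB and 26.4 and 8.57 CPM with empty vector in libraries labelled SW480, against 48.5 and 124 CPM in parental SW480. The 4 transduced libraries lay below the parental pair, which was itself spread over 2-fold. TJP1 gave a log2 fold change over parental SW480 of -2.3 with empty vector (SE 0.7, adjusted p = 0.029) and -2.99 with ERB (SE 0.72, adjusted p = 0.011). With the offsets these were -1.31 and -1.76, and with library numbers as a replicate block the call for empty vector was lost.

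TJP3, the related scaffold ZO-3, was higher than in parental SW480 with empty vector (log2 fold change 1.84, adjusted p = 0.031) and with ERB (2.07, adjusted p = 0.017; 1.16 and 0.85 with the offsets), at levels of 1.15 to 9.35 CPM over all libraries. MARVELD3, a tight junction protein of the occludin family, was higher with empty vector than in parental SW480 (1.51, adjusted p = 0.0029). In libraries labelled SW480, it was called lower with ERB than with empty vector by DESeq2 (-0.88, adjusted p = 0.016) and with the offsets (-1.08, adjusted p = 0.018). For the difference of the ERB effect between the lines the values were -1.4 (adjusted p = 0.0047) and -1.59 (adjusted p = 0.04). An ERB effect cannot be told apart there from a difference in line. MARVELD2, the tricellulin of tricellular contacts, was higher in parental SW620 than in parental SW480 (1.23, adjusted p = 0.043), a call lost in 18 of 27 alternative settings; the value was 1.91 with the offsets. Occludin (OCLN) was lower with ERB than in parental SW480 (-2.33, adjusted p = 0.035), but its value was -0.04 with the offsets, with an adjusted p of 0.93.

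ESRP2, a splicing factor that keeps epithelial isoforms, was at 87.7 and 98.2 CPM with estradiol, 79 and 65.6 CPM with DMSO, 103 and 108 CPM in untreated ERB cells, 106 and 99.4 CPM with empty vector and 99.6 and 114 CPM in parental SW620. It was at 142 and 117 CPM with ERB and 111 and 157 CPM with empty vector in libraries labelled SW480, against 46 and 34.7 CPM in parental SW480, which lay below all other libraries. ESRP2 gave a log2 fold change over parental SW480 of 1.41 in parental SW620 (SE 0.27, adjusted p = 0.0032), 1.73 with empty vector (SE 0.27, adjusted p = 0.00089) and 1.68 with ERB (SE 0.27, adjusted p = 0.0022), the last of which was 0.79 with the offsets. ESRP1, its paralogue, was called higher with empty vector than in parental SW480 (1.47, SE 0.49, adjusted p = 0.041). This call was lost in 16 of 28 alternative settings, and the value was 2.67 with the offsets.

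Among polarity genes, CRB3 and LLGL2 were low and PARD6B was high in parental SW480. CRB3, the Crumbs protein of the apical membrane, was at 24.1 and 28.8 CPM with estradiol, 13.4 and 9.23 CPM with DMSO, 16.5 and 16.2 CPM in untreated ERB cells, 20.3 and 16.2 CPM with empty vector and 14.1 and 18.8 CPM in parental SW620. It was at 42.9 and 24.1 CPM with ERB and 12.5 and 44.4 CPM with empty vector in libraries labelled SW480, against 4.75 and 2.79 CPM in parental SW480. All 14 other libraries lay above the parental SW480 pair. CRB3 gave a log2 fold change over parental SW480 of 2.13 in parental SW620 (SE 0.54, adjusted p = 0.018), 2.92 with empty vector (SE 0.56, adjusted p = 0.0031) and 3.15 with ERB (SE 0.56, adjusted p = 0.0035). The values for empty vector and ERB were 1.95 and 1.77 with the offsets.

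LLGL2, the lethal giant larvae homologue of the basolateral side, was at 188 and 270 CPM with estradiol, 133 and 59.2 CPM with DMSO, 245 and 219 CPM in untreated ERB cells, 254 and 225 CPM with empty vector and 161 and 234 CPM in parental SW620. It was at 507 and 308 CPM with ERB and 121 and 568 CPM with empty vector in libraries labelled SW480, against 53.3 and 35.7 CPM in parental SW480. The parental SW480 pair lay below all other libraries. The log2 fold change was 2.15 in parental SW620 (SE 0.61, adjusted p = 0.029), 2.95 with empty vector (SE 0.63, adjusted p = 0.0057) and 3.2 with ERB (SE 0.64, adjusted p = 0.0052), each over parental SW480. With the offsets the values for empty vector and ERB were 2.15 and 2.

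PARD6B, an adaptor of the PAR complex, was at 1.22 and 1.38 CPM with estradiol, 3.11 and 2.48 CPM with DMSO, 1.81 and 1.27 CPM in untreated ERB cells, 0.871 and 2.02 CPM with empty vector and 1.98 and 1.17 CPM in parental SW620. It was at 0.342 and 0.687 CPM with ERB and 1.5 and 0.557 CPM with empty vector in libraries labelled SW480, against 5.93 and 13 CPM in parental SW480. The parental SW480 pair lay above all other libraries. Log2 fold changes over parental SW480 were -2.58 in parental SW620 (SE 0.57, adjusted p = 0.0081), -3.15 with empty vector (SE 0.6, adjusted p = 0.003) and -4.14 with ERB (SE 0.65, adjusted p = 0.0021). With the offsets they were -1.5, -1.79 and -2.16. PARD3, the scaffold of that complex, ranged from 11 to 29.5 CPM and was not called by edgeR without the offsets in any comparison over 16 libraries. With the offsets it was called higher with DMSO than in untreated SW620 ERB cells (1.02, adjusted p = 0.0074). DESeq2 called it there (1.14, adjusted p = 0.0065) and lower with ERB than in parental SW480 (-0.95, adjusted p = 0.011).

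The step from parental cells to empty vector was compared between the lines in a test of the difference itself. Of the 31 genes, 3 were called higher and 1 lower in this difference, labelled SW480 minus SW620, where 7.2% of all genes were called, 3.01% higher and 4.2% lower. ESRP2 (1.79, SE 0.37, adjusted p = 0.015), F11R (1.57, SE 0.36, adjusted p = 0.021) and CRB3 (2.77, SE 0.75, adjusted p = 0.045) had the more positive vector effect in the libraries labelled SW480. PARD6B had the more negative one (-3.02, SE 0.82, adjusted p = 0.046). Of 26 alternative settings, 4 lost the call of ESRP2, 8 that of F11R, 17 that of CRB3 and 16 that of PARD6B. In the same order the 4 values were 1.54, 2.22, 1.78 and -1.51 with the offsets. No gene was called for the difference of the ERB effect between the lines, where 0.189% of all genes were called. There 2 had an unadjusted p under 0.05, and DESeq2 called 1 (MARVELD3). With the offsets CDH1 and MARVELD3 were called.

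Values followed the GC content of the transcripts in several comparisons. Among all genes tested, the median deviation of those in the lowest quartile of GC content from their mean ran from -1.27 in ERB library I labelled SW480 to 1.28 in parental SW480 library II on the log2 scale, and was 0.77 and 0.93 in the DMSO libraries. Across the 31 genes, which share these libraries, the correlation of log2 fold change with GC content was 0.94 for estradiol against DMSO, -0.68 for DMSO against untreated cells, 0.77 for ERB against empty vector and 0.82 for ERB against parental among libraries labelled SW480. For ERB against empty vector in SW620 it was 0.12. Over all tested genes of known GC content, the 5 correlations in the same order were 0.77, -0.54, 0.38, 0.68 and -0.01. With the offsets the 5 values of the 31 genes were 0.31, -0.13, 0.2, 0.31 and 0.11. Genes are not independent replicates, and these values are descriptions.

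**Figure D4:**
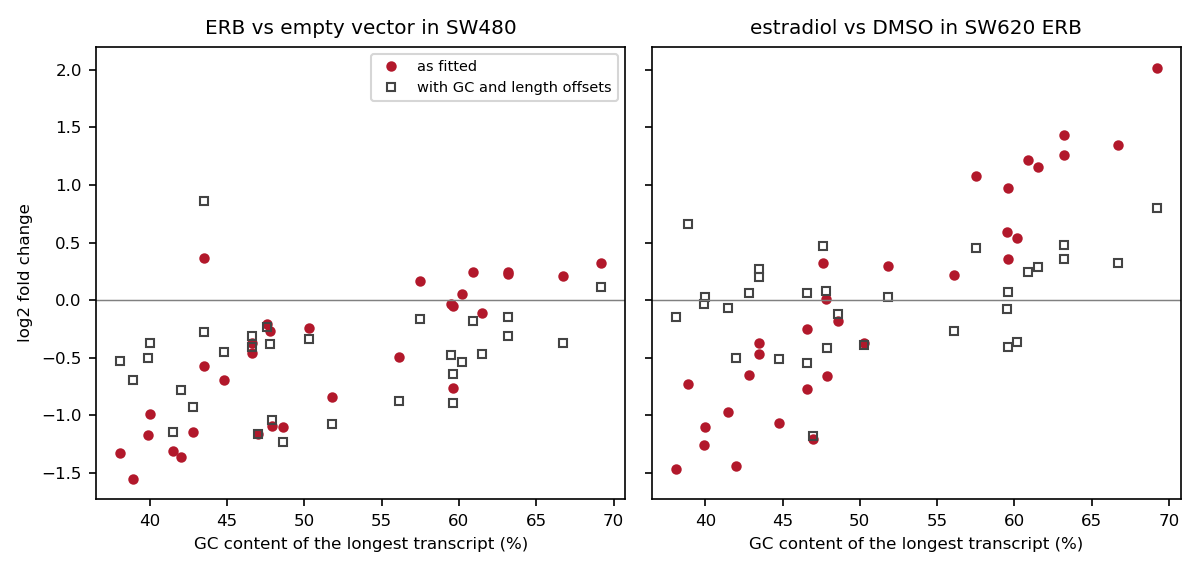
Log2 fold change of 31 genes against the GC content of their longest transcript (%), for ERB over empty vector in libraries labelled SW480 (left) and estradiol over DMSO in SW620 ERB cells (right), as fitted (red circles) and with offsets for GC content and length (open squares). The red circles rise with GC content, at correlations of 0.77 and 0.94 across these 31 genes, against 0.38 and 0.77 over all tested genes.

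In estradiol against DMSO, the 6 genes with an unadjusted p under 0.05 were JUP, PKP3, CLDN3, CLDN4, TJP3 and CRB3. Their log2 fold changes ran from 1.08 for CLDN4 to 2.02 for CLDN3 and none was called (adjusted p = 0.24 for each). Their transcripts had a GC content of 57.5 to 69.2%, and with the offsets their log2 fold changes were 0.24 to 0.8. In a fit of the 10 SW620 libraries alone with the offsets, 4 of 31 genes were called, where 18.7% of all genes were called, 7.67% lower and 11.1% higher. EPCAM (-1.18, adjusted p = 0.014), PKP2 (-0.55, adjusted p = 0.037) and ESRP2 (-0.44, adjusted p = 0.019) were lower and CLDN4 (0.42, adjusted p = 0.036) was higher with estradiol.

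In the same fit, DMSO against untreated ERB cells gave 7 of 31 genes called higher and 10 lower, where 47% of all genes were called, 21% higher and 25.9% lower. CLDN7 (2.74, adjusted p = 1.8e-06), CLDN1 (1.42, adjusted p = 7.2e-06), CLDN15 (1.41, adjusted p = 0.00016) and PARD3 (1.02, adjusted p = 0.00029) were higher with DMSO. CTNNB1 (-1.39, adjusted p = 1.6e-05), F11R (-1.2, adjusted p = 0.00038), JUP (-1.11, adjusted p = 1.3e-05), CLDN4 (-0.95, adjusted p = 0.00012) and CDH1 (-0.52, adjusted p = 0.0025) were lower. This fit was added after the data were seen, and the DMSO and estradiol libraries differ from the untreated ones in the labels only by the treatment.

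Of 60 further junction and polarity genes, 39 were tested. In parental SW620 against parental SW480, 6 were called higher and 14 lower, 51.3% where 18% of all genes were called. AMOTL2, AMOTL1 and CLDN11 were among those lower in SW620. AMOTL1, an angiomotin-like scaffold of tight junctions, had 1 and 0 reads in parental SW620, against 1562 and 2361 reads in parental SW480. AMOTL1 had 65 and 226 reads with ERB and 14 and 6 reads with empty vector in libraries labelled SW480. AMOTL1 was called higher with ERB than with empty vector (adjusted p = 0.022). In that comparison 2 of the 39 were called, both higher, 5.13% where 1.1% of all genes were called. An ERB effect cannot be told apart there from a difference in the line the libraries came from.

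CLDN11, a claudin, was at 82.6 and 115 CPM with ERB and 88.9 and 67.9 CPM with empty vector in libraries labelled SW480, against 252 and 289 CPM in parental SW480. AMOTL2 was at 48.8 and 54.8 CPM with ERB and 18.9 and 33.4 CPM with empty vector in libraries labelled SW480, against 156 and 142 CPM in parental SW480. Over the 39 genes, 6 were called higher and 13 lower with empty vector than in parental SW480, 48.7% against 30.9% of all genes, and 10 higher and 15 lower with ERB, 64.1% against 44.4% of all genes. The epithelial transcription factor ELF3 was among those higher than in parental SW480, with a log2 fold change of 2.44 for empty vector (SE 0.41, adjusted p = 0.0014) and 2.36 for ERB (SE 0.41, adjusted p = 0.0032).

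With DMSO against untreated SW620 ERB cells, 2 of the 39 were called higher and 4 lower, 15.4% where 6.15% of all genes were called. ELF3 was at 15.1 and 11.2 CPM with DMSO, against 60.1 and 62 CPM in untreated ERB cells, and at 23.9 and 23.5 CPM with estradiol (DMSO against untreated, log2 fold change -2.21, SE 0.41, adjusted p = 0.013). PARD3B, a relative of PARD3, had 94 and 63 reads with DMSO, against 6 and 6 reads in untreated ERB cells (3.5, SE 0.69, adjusted p = 0.017). CLDN19 fell to 7 and 5 reads with DMSO, against 29 and 30 reads in untreated ERB cells (-2.44, SE 0.53, adjusted p = 0.024). AMOTL2 was at 47.9 and 38.4 CPM with DMSO, against 19 and 15.5 CPM in untreated ERB cells (1.32, SE 0.3, adjusted p = 0.029). None of the 39 was called for estradiol against DMSO, where 11 had an unadjusted p under 0.05, or for ERB in SW620, where none did.

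Of 10 repressors of epithelial genes, 4 were tested. SNAI1, a zinc finger repressor of CDH1, was at 37.1 and 26.8 CPM with ERB and 18.2 and 41 CPM with empty vector in libraries labelled SW480, against 6.73 and 3.97 CPM in parental SW480. Its log2 fold change over parental SW480 was 2.58 with ERB (SE 0.46, adjusted p = 0.0035), 2.47 with empty vector (SE 0.46, adjusted p = 0.0026) and 1.71 in parental SW620 (SE 0.45, adjusted p = 0.02). SNAI1 and CDH1 were thus both lower in parental SW480 than in the libraries labelled SW480 with a vector. ZEB1, another repressor of CDH1, had 1 and 1 reads with ERB and 15 and 5 reads with empty vector in libraries labelled SW480, against 55 and 363 reads in parental SW480. It was called lower in both and in parental SW620, which had 26 and 6 reads. TWIST1 and TWIST2 had 0 reads in every library, where 3 reads equal 0.158 to 0.235 CPM.

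The E-box CAGGTG, which on the other strand reads CACCTG, is a word bound by SNAI and ZEB proteins. It was searched in windows of 300 bases, from 250 before to 50 after each gene's start in RefSeq (GRCh38.p14). No window was at hand for CDH1, EPCAM, CTNND1, PKP2, PKP3, PPL, F11R, MARVELD3, ESRP1, ESRP2, GRHL2, PARD3, PARD6B or LLGL2. Windows were at hand for the other 19 of the 33 genes, some of which had several. The word occurred in 11 of their 31 windows (35.5%), from 10 genes, and in 7231 of 35116 windows of all genes (20.6%). The word AACCGGTT, which is its own reverse complement and is bound by grainyhead-like factors, occurred in none of the 31 and in 47 of all windows (0.134%). CRB3 and one of the windows of CLDN7 held the most E-boxes, 5 each. These are printed with 12 bases on either side, because the genes differ in opposite directions between the parental lines. CRB3 was higher and CLDN7 lower in parental SW620 than in parental SW480. Capitals mark E-box letters.
CRB3, base -228, chr19:6464031-6464060, plus strand: atgctcgcaatgCAGGTGtaaggtccccct
CRB3, base -208, chr19:6464051-6464080, plus strand: aggtccccctcaCACCTGcgcgcttccgcg
CRB3, base -147, chr19:6464112-6464141, plus strand: ggggtcccgttaCAGGTGcgcccacagcgc
CRB3, base -89, chr19:6464170-6464199, plus strand: ctcagcgaggctCAGGTGcacaagccggaa
CRB3, base -60, chr19:6464199-6464228, plus strand: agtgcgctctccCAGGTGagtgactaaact
CLDN7, base -174, chr17:7262635-7262664, minus strand: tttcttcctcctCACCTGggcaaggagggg
CLDN7, base -135, chr17:7262596-7262625, minus strand: cgacttccggttCAGGTGagtgtcccttcg
CLDN7, base -20, chr17:7262481-7262510, minus strand: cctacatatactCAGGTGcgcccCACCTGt
Positions are counted to the gene's start and give the first base of the E-box. The CLDN7 sites at -9 and 6 overlap the stretch printed for -20 or follow it closely. A match is a description of these letters and not a binding site.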

How the data were processed

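The values deposited by the authors were used: whole-number read counts of each gene, and FPKM, in which the authors scaled reads by length and depth. Either table had a column for each of 16 libraries and 0 further columns of per-sample values. Libraries were made with a stranded poly(A) kit, per the labels' protocols. The tools named are Cufflinks 2.1.1, HTSeq 0.6.1, Picard 1.29, SAMtools and TopHat2 2.0.4, on GRCh37, per the submitters' processing notes. Their roles and the use of strand in counting are not given in the sources used here.

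The 17464 genes that passed filterByExpr were fitted in edgeR 4.0.16 (R 4.3.3) with TMM factors (0.585 to 1.36), 8 groups and no covariate. Differences were tested with the quasi-likelihood test, two-sided, with Benjamini-Hochberg adjustment over all tested genes. The genes, lists and tests were chosen with earlier results of these data known. Values in every library are given for CDH1, EPCAM and the genes called in the most comparisons, up to 14; other genes with values were chosen after these were seen, and of each further list up to 4 called genes with the smallest p are named. Offsets removed each library's trend with GC content and length (splines of 5 degrees of freedom; known for 98% of tested genes). Alternatives used DESeq2 1.42.0, limma 3.58.1 on counts and on log2(FPKM + 1) or log2(FPKM + 0.1), other filters and fewer libraries. On simulated data, edgeR recovered 32 to 52% of 4-fold and 78 to 88% of 8-fold changes, depending on the comparison. Deviations of same-numbered libraries went together in some pairs of groups and in opposite ways in others. Over 28 pairs of groups the correlation ran from -0.81 to 0.73 and exceeded 0.1 in 9. Libraries of a group differed beyond counting noise (chi-square per degree of freedom 6.62 to 251), and depth limits precision for genes of few reads. Some results on individual further genes are not reported here.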

Additional observations from a re-analysis of the deposited data

Results flagged for a closer look

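The effect of the empty vector, relative to parental cells, differed between the libraries labelled SW480 and those of SW620 in 4 genes by a test of the difference. It was 1.57 for F11R (adjusted p = 0.021), 1.79 for ESRP2 (adjusted p = 0.015), 2.77 for CRB3 (adjusted p = 0.045) and -3.02 for PARD6B (adjusted p = 0.046) on the log2 scale, by edgeR's quasi-likelihood test. The call was lost in 8 of 26 alternative settings for F11R, 4 for ESRP2, 17 for CRB3 and 16 for PARD6B. In SW620 the vector effect of these genes was 0.06, -0.06, 0.15 and -0.13, and in the libraries labelled SW480 it was 1.63, 1.73, 2.92 and -3.15. The empty-vector libraries labelled SW480 held 2.2% and 2.1% of the parental level of 300 genes high in parental SW480, so a vector effect and a different line of origin cannot be told apart.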

How the results depend on the processing

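Of 49 calls in 12 results, 2 were kept under every alternative run, ESRP2 between the parental lines and CDH1 for empty vector against parental SW480. CLDN1 for ERB against parental SW480 reversed to 0.19 with offsets and to 0.21 with offsets in 1 line only; the cause was not tested. Counts of the 31 genes called moved as follows. Most are given without the share of all genes called in the same fit, so they describe the settings and not these genes. Between parental lines 10 became 5 with log2(FPKM + 0.1), 19 with offsets (13 higher, 6 lower) and 16 without the 4 libraries labelled SW480 with vector. Empty vector against parental in SW620 gave 1 with 1 line only, with offsets and with both, against 0. In the libraries labelled SW480, 17 became 10 with unfiltered log2(FPKM + 1) and 1 with 1 line only. ERB against empty vector there gave 1 with DESeq2 and 3 with offsets. ERB against parental there, 16, became 0 with 1 line only and 9 with offsets as well. DMSO against untreated cells, 2, became 1 with RLE factors, 6 without a filter, 8 with DESeq2, 0 with log2(FPKM + 0.1), 1 with the replicate block, 20 with 1 line only, 9 with offsets, 17 with both and 12 without the 4 libraries. Estradiol against DMSO gave 6 without a filter, 19 with 1 line only and 4 with offsets as well. In the fit of 1 line only with offsets, 47% of all genes were called for DMSO and 18.7% for estradiol. Between lines, empty-vector cells gave 1 without a filter, 1 with DESeq2 and 3 with offsets, and ERB cells gave 9, 2 and 4. The difference of the vector effect, 4, became 10 without a filter, 10 with DESeq2, 2 with log2(FPKM + 0.1), 2 with the replicate block and 14 with offsets; that of the ERB effect gave 1 with DESeq2 and 2 with offsets. The replicate block left the other counts within 1.5 times.

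Leaving out each library in turn gave 2 (without parental SW620 II) to 16 (without either empty-vector library labelled SW480) between parental lines. It gave 8 (without parental SW480 II) to 22 (without empty-vector I) for empty vector, with 10 without empty-vector II, and 5 (without parental SW480 II or ERB I) to 23 for ERB, both against parental SW480. For DMSO it gave 0 (without either library of the untreated ERB, DMSO or estradiol group) to 11, with 10 and 11 without empty-vector I or II labelled SW480. It gave 0 to 1 for ERB against empty vector in libraries labelled SW480, 0 to 9 and 0 to 3 between lines in empty-vector and ERB cells, 0 to 14 for the difference of the vector effect and 0 to 0 for the other 4. In these fits a group's lone library was taken to vary as other groups do. These counts are given without the share of all genes called in the same fit, so they describe the settings and not these genes. Genes of few reads, such as DSC2, PARD6B and TJP3, are limited by depth.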
